A study of Mus musculus with 35 samples.

Results

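The comparison described here asked how gene expression in the anterior amygdala of female B6D2F1N mice, a hybrid of the C57BL/6 and DBA/2 strains, differed between enriched and standard housing. Its members are the 10 anterior libraries of B6D2F1N mice among the 35 libraries of the series, 5 labelled as enriched and 5 as standard by treatment, with 1 library per mouse. The series was made to study strain, housing and judgement bias in the amygdala, with laser-captured tissue from C57BL/6J and B6D2F1N mice. The enriched mice were given 1 h a day in a playground joined to their home cage from postnatal day 77 until the end of the experiment, while the cages of the standard mice were only moved to a bench as a mock treatment. All 10 mice carried no transgene and went through touchscreen training from postnatal day 70 and then a judgement bias test over 5 days. Feeding was restricted in both groups. Training lasted between 37 and 90 days, depending on how fast each mouse learned, and mice that trained longer were older. Training length and age at sampling are not known here for single mice. Mice lived in shared home cages, and the labels do not give the cage, so cage and housing cannot be told apart. Nor can housing be fully told apart from the bias label, because all 3 mice labelled optimist were standard, while 2 enriched mice and 1 standard mouse were labelled pessimist and 3 and 1 had no bias label.

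The amygdala links sensory cues to aversive and rewarding outcomes, and its basolateral nucleus, at which the capture was aimed, consists mostly of glutamatergic projection neurons with fewer GABAergic interneurons. Environmental enrichment is known in rodent brain for effects on neurotrophins such as Bdnf, on activity-dependent early genes, on synaptic proteins and on newborn neurons. Genes of these pathways, of energy metabolism and of the cell types that a captured field could hold are therefore described as groups below, after the genes with the smallest p-values.

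Between 17456007 and 27352623 reads were counted on genes in the 10 libraries. Enriched mice 2, 3 and 5 stood apart from the other 7 libraries. A count was found for 18580, 20522 and 18959 genes in these 3 libraries and for 20930 to 23530 in the others, although enriched mice 5 and 2 had the deepest libraries. The number of genes at 0 in one library with a mean of at least 1 CPM (counts scaled to a common library size) in the other 9 was 826, 354 and 698 in enriched mice 2, 3 and 5, and 42 to 251 elsewhere. Their mean Pearson's r with the other 9 libraries across genes, on log2 CPM, was 0.902, 0.912 and 0.906, below the 0.920 to 0.931 of the rest. Enriched mice 2, 3 and 5 also carried the lowest library numbers in their titles, 4, 2 and 3, against 14 to 37 for the other 7. The labels do not say what this number orders. Values without these 3 libraries are therefore given beside many of the results. Xist, which is transcribed from the inactive X chromosome, had 0 counts in standard mouse 1 and 1320 to 2395 in the other 9 libraries, and the Y-linked genes examined had at most 1 count in any library.

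**Figure D1:**
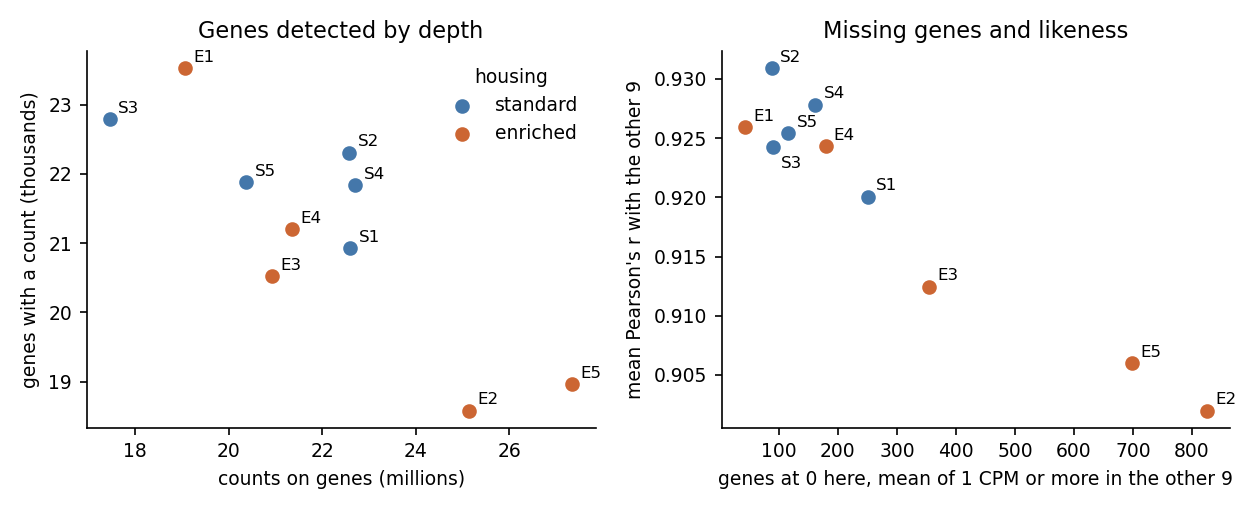
Left, number of genes with at least 1 count against number of reads counted on genes. Right, the mean Pearson's r across genes with the other 9 libraries against the number of missing genes. Missing genes were at 0 in that library with a mean of at least 1 CPM in the other 9. Each point is 1 anterior B6D2F1N library (S for standard, E for enriched, with the number of the mouse). Enriched mice 2 and 5 had the most reads and the fewest genes, and enriched mice 2, 3 and 5 had the lowest r.

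The captured tissue was checked against neuron markers. Slc17a7, the vesicular glutamate transporter of cortical-type projection neurons, stood between 161.5 and 849 CPM, and the sum over 12 excitatory markers between 2192 and 4722 CPM. Rspo2, which marks basolateral projection neurons and was chosen here after its values were seen, was at 297, 183, 32.8, 209 and 133 CPM in standard mice 1 to 5 and at 32.1, 183, 158, 269 and 247 CPM in enriched mice 1 to 5. It was thus lowest in 1 mouse of each group, standard mouse 3 and enriched mouse 1.

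No gene passed the threshold between enriched and standard mice. Of 24639 genes tested with edgeR's quasi-likelihood test, 0 (0%) had an adjusted p of at most 0.05, and the smallest adjusted p was 0.77. An unadjusted p under 0.05 was found for 1553 genes (6.3%), 733 higher in enriched mice (2.97%) and 820 lower (3.33%). DESeq2's Wald test, on the same counts, called 8 genes (0.0325%) and had 923 (3.75%) with an unadjusted p under 0.05. The limma-voom test called 1 gene (0.00406%) and had 1048 (4.25%) with an unadjusted p under 0.05. The small p-values lay mostly among scarce transcripts. They made up 12.8% of 9102 genes under a mean of 1 CPM and 2.25% of 6003 genes at 1 to 10 CPM. At 10 to 100 CPM they made up 3.03% of 7601 genes, and at 100 CPM or more 1.29% of 1933. From the scarcest level up, 449, 94, 169 and 21 genes with such a p were higher in enriched mice, and 714, 41, 61 and 4 lower. The lower side was thus the larger only under 1 CPM. Values of the 2 groups did not overlap for 120 genes (0.487%), 40 with every enriched mouse higher (0.162%) and 80 with every enriched mouse lower (0.325%). Among the 9534 genes at a mean of at least 10 CPM, 18 lay apart in each direction.

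What these 10 libraries could bound depended on the level of the gene. The 95% interval of the log2 fold change lay inside a 2-fold change either way, from -1 to 1, for 8109 genes (32.9%). By level this was so for 93.8% of genes at 100 CPM or more, 78.4% at 10 to 100 CPM, 5.63% at 1 to 10 CPM and 0.011% under 1 CPM. A 4-fold change either way contained the interval of 99.5%, 98.8%, 53.7% and 0.352% of the genes in the same order. For the tighter margin of 0.5 on the log2 scale, a 1.41-fold change, the shares were 29.7%, 9.62%, 0% and 0%. The median distance from the estimate to the end of its interval corresponded to 1.37-fold at 100 CPM or more, 1.48-fold at 10 to 100 CPM, 2.76-fold at 1 to 10 CPM and 11.3-fold under 1 CPM. By a pair of one-sided tests per gene, adjusted over all genes, 7398 genes (30%) differed by less than 2-fold, 12736 (51.7%) by less than 4-fold and 0 by less than 1.41-fold.

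**Figure D2:**
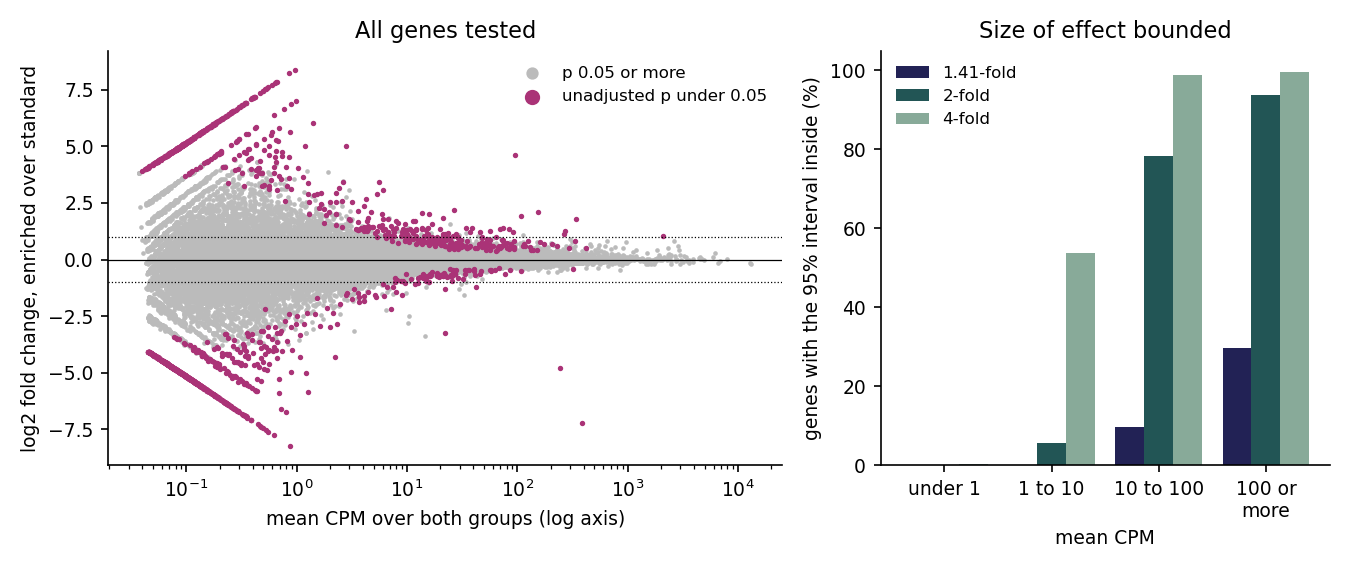
Left, the log2 fold change (enriched over standard) of each of the 24639 genes against its mean CPM on a log axis, with unadjusted p under 0.05 in purple and dotted lines at a 2-fold change. Right, the percentage of genes at each level whose 95% interval lies inside a 1.41-, 2- or 4-fold change, which climbs from 0.011% under 1 CPM to 93.8% at 100 CPM or more for the 2-fold margin.

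One of the genes that DESeq2 called was Gsdmd (gasdermin D, which forms the membrane pore of pyroptosis; ENSMUSG00000022575, GRCm38 chromosome 15, 75862327 to 75867408, plus strand). Its level was 3.07, 3.01, 2.25, 5.28 and 7.40 CPM in standard mice 1 to 5 and 0.541, 0.293, 0, 0.214 and 0 CPM in enriched mice 1 to 5. Every standard mouse lay above every enriched mouse, as for 80 (0.325%) of the 24639 genes tested. The separation held for enriched mice 1 and 4, which did not stand apart in the number of genes detected. The log2 fold change of Gsdmd was -4.31 (SE 1.04, 95% interval -6.53 to -2.08) and -3.44 without enriched mice 2, 3 and 5. Its adjusted p was 0.770 with edgeR and 0.00233 with DESeq2. Genes of inflammasomes and pyroptosis were split: 8 of 15 had a higher and 7 a lower estimate, with a median log2 fold change of 0.01 (-0.38 without enriched mouse 3), and besides Gsdmd only the sensor gene Nlrp1a had an unadjusted p under 0.05, at 0, 0, 0.256, 1.37 and 1.71 CPM in standard mice and 0 in all enriched mice. The study picked Gsdmd, like Gm42944, Gm10384, Cuzd1, Tenm3 and Gm43019 below, from a set made of these libraries and an enriched one not analysed here, so their values are not independent evidence of a direction.

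Of the 8 genes that DESeq2 called, 4 were lower and 4 higher in enriched mice, and Tmem44 was the only one at a mean above 10 CPM. Gm42944, a transcript model still to be tested by experiment (GRCm38 chromosome 3, 18622162 to 18626141, plus strand), was at 0.790, 1.26, 2.20, 2.73 and 1.76 CPM in standard mice and at 0 counts in all enriched mice, which makes it at least 12.9-fold lower when 3 counts are allowed for each library at 0. Its DESeq2 adjusted p was 1.4e-05, and it was the gene that limma-voom called, with an adjusted p of 0.00630. Tbc1d22bos, annotated on the strand opposite to Tbc1d22b, was at 0.883, 0.584, 0.971, 0.956 and 0.427 CPM in standard mice and at 0 counts in enriched mice, at least 5.64-fold lower. Because the kit does not mark strand, its reads cannot be told from those of Tbc1d22b, whose mean was 10.95 CPM in standard and 6.85 CPM in enriched mice. Gm47857, inside the span of Pdss2, was at 1.39, 0.808, 2.40, 0.410 and 3.61 CPM in standard and 0.147, 0, 0, 0.107 and 0 CPM in enriched mice, and Pdss2 itself had a log2 fold change of 0.34. In all 3 of these transcripts the groups did not overlap, as for 80 genes (0.325%) in this direction, and 8 genes (0.0325%) had a count in every standard and in no enriched library, against 0 the other way. Enriched mice 2, 3 and 5 had the fewest genes with a count, so a count in every enriched library was the harder to reach. The part of this in the 8 against 0 was not tested.

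The higher calls of DESeq2 showed a different layout. Cuzd1, a CUB and zona pellucida domain protein whose span overlaps Fgfr2, had 1 count over the 5 standard libraries and was at 1.72, 4.53, 1.45, 2.14 and 0 CPM in enriched mice, with enriched mouse 5 at 0. Gm10384, a long noncoding RNA, had 0 counts in all standard libraries and was at 0, 3.19, 4.82, 0.696 and 0.857 CPM in enriched mice, at least 13.5-fold higher on the same floor, with enriched mouse 1 at 0. Gm37738, inside the span of Trip12, was at 0, 0.0898, 0, 0.0455 and 0.0475 CPM in standard and 0.541, 10.7, 2.15, 0.107 and 0.447 CPM in enriched mice, where mouse 2 alone made most of the sum. Gm37738 had a log2 fold change of 6.03, and of 2.95 without enriched mice 2, 3 and 5. In Cuzd1 and Gm10384 the groups therefore touched at 0, and enriched mouse 2 was highest for Cuzd1 and enriched mouse 3 for Gm10384. Fgfr2, at a log2 fold change of 0.12, and Trip12, at 0.19, had small estimates by comparison. Gm43019, inside the span of Auts2 and picked by the study, was at 0.186, 1.08, 1.02, 0.911 and 0.902 CPM in standard and 0.0491, 0, 0, 0 and 0 CPM in enriched mice. Its DESeq2 adjusted p was 0.0629.

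Of the 8 higher genes with the smallest p-values at a mean of at least 10 CPM, Tmem44 and Tenm3 were those higher in every enriched mouse than in every standard mouse. Tmem44, a transmembrane protein gene (GRCm38 chromosome 16, 30511855 to 30550842, minus strand), was at 14.4, 13.6, 16.0, 12.8 and 19.4 CPM in standard mice and 31.7, 32.9, 21.6, 31.7 and 26.9 CPM in enriched mice. The lowest enriched value lay above the highest standard value, and enriched mice 1 and 4 were among the highest. The log2 fold change of Tmem44 was 0.92 (SE 0.22, 95% interval 0.45 to 1.40), and 1.07 without those 3 mice, with a DESeq2 adjusted p of 0.0311. Tenm3, a teneurin that acts as an adhesion molecule in the wiring of neurons (GRCm38 chromosome 8, 48227682 to 48843951, minus strand), was at 11.3, 8.44, 7.72, 10.3 and 10.8 CPM in standard and 15.4, 25.7, 30.5, 13.7 and 19.9 CPM in enriched mice. Its groups did not overlap either, as for 40 genes (0.162%) in this direction, but enriched mice 2, 3 and 5 were the highest. The log2 fold change of Tenm3 was 1.11 (SE 0.29, 95% interval 0.50 to 1.72) with all libraries and 0.60 without those mice, with a DESeq2 adjusted p of 0.134. Among 20 teneurin, latrophilin and synaptic adhesion genes, Tenm3 was the only one with an unadjusted p under 0.05, 16 had a higher estimate, the median log2 fold change was 0.11, and 90% of the intervals lay inside a 2-fold change.

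**Figure D3:**
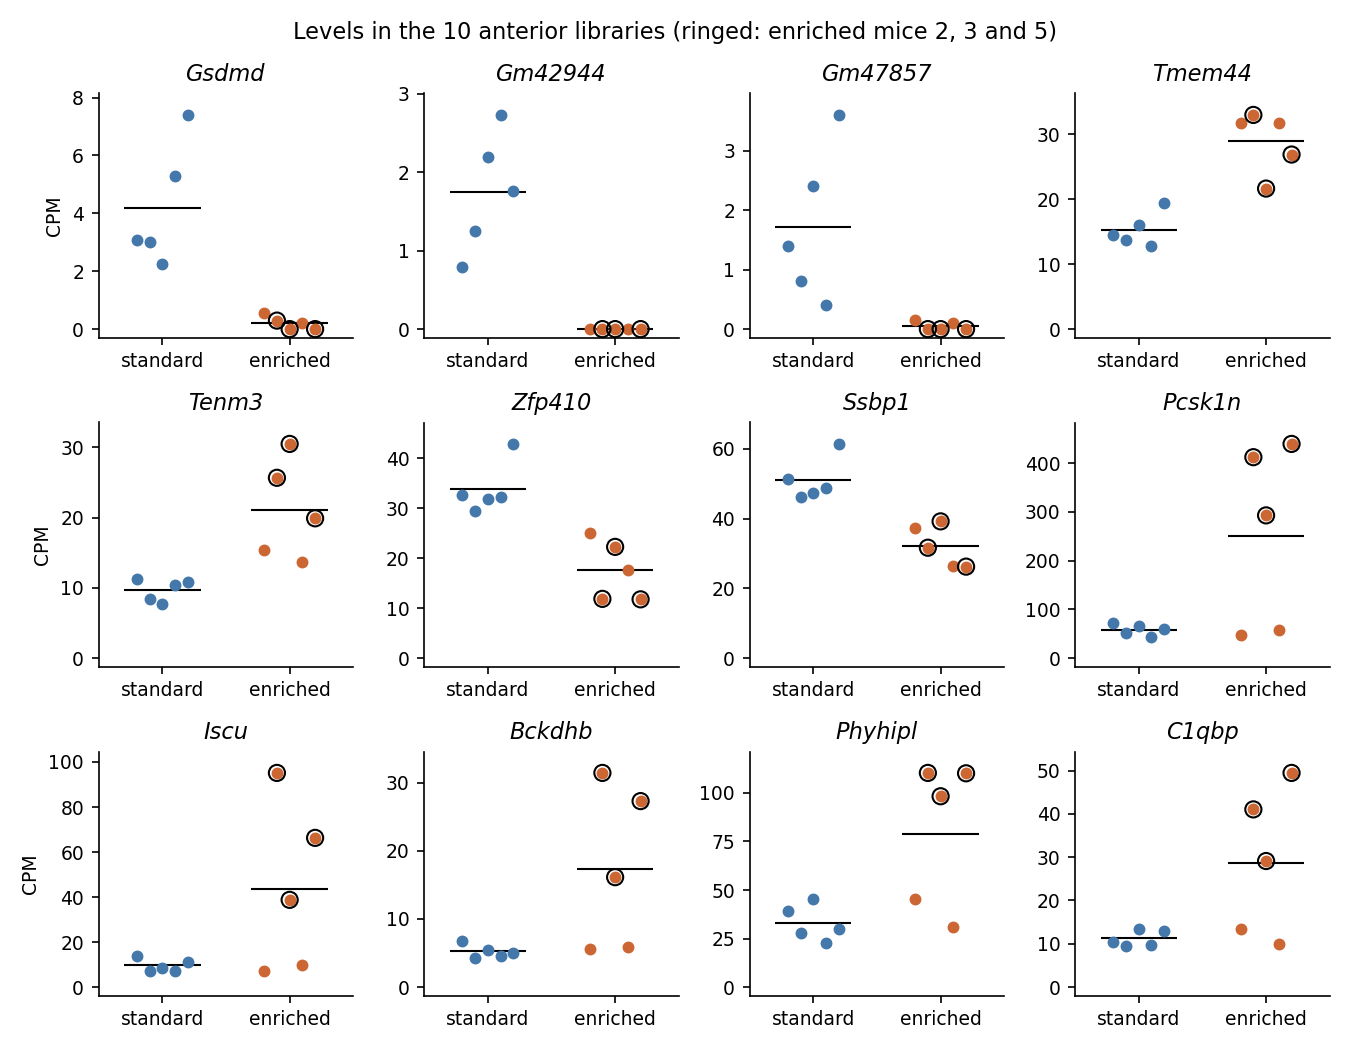
Level in CPM (linear axes from 0) of 12 genes in each of the 10 anterior B6D2F1N libraries, with blue points for standard and orange for enriched mice, a line at each group's mean and rings around enriched mice 2, 3 and 5. Gsdmd, Gm42944, Gm47857, Zfp410 and Ssbp1 are lower in all enriched mice and Tmem44 and Tenm3 higher in all, whereas Pcsk1n, Iscu, Bckdhb, Phyhipl and C1qbp are above the standard mice mainly in the ringed libraries.

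In the other abundant genes with the smallest p-values on the higher side, the difference lay in enriched mice 2, 3 and 5. Pcsk1n, which encodes the prohormone convertase inhibitor proSAAS (GRCm38 chromosome X, 7919822 to 7924410, plus strand), was at 71.6, 51.7, 65.5, 44.1 and 59.1 CPM in standard and 47.6, 412, 293, 57.9 and 439.7 CPM in enriched mice. Enriched mice 1 and 4 lay within the range of the standard mice, and the other 3 were far above it. The log2 fold change of Pcsk1n was 2.1 (SE 0.50, edgeR adjusted p 0.770) with all 10 libraries and -0.13 without those 3. Iscu, the scaffold on which iron-sulfur clusters are assembled, was at 13.6, 7.36, 8.59, 7.24 and 11.3 CPM in standard and 7.18, 95.1, 38.8, 9.90 and 66.3 CPM in enriched mice, and its log2 fold change went from 2.18 to -0.15 without them. Iscu is uncertain for a further reason, since 35.1% of the 72-base windows of its transcripts match another gene. Bckdhb, a subunit of the branched-chain keto acid dehydrogenase, went from 1.72 to 0.15, Phyhipl from 1.26 to 0.23, and C1qbp, a mitochondrial protein that binds complement, from 1.35 to 0.07. In 6 of the 8 higher genes of this kind (Pcsk1n, Iscu, Tenm3, Phyhipl, Bckdhb and C1qbp) enriched mice 2, 3 and 5 were above all other 7 libraries. The last of the 8, Ttr, the transthyretin of the choroid plexus, was at 5.67, 8.22, 3.12, 2.28 and 17.9 CPM in standard and 859.7, 37.4, 2.54, 10.5 and 8.12 CPM in enriched mice, so that enriched mouse 1 set its log2 fold change of 4.62, which was 0.98 without that mouse.

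The same high levels recurred in libraries of low number outside these 10. Over all 35 libraries, Pcsk1n was at 184.4 to 479.9 CPM of unscaled counts in the 6 libraries numbered 2 to 7 and at 16.8 to 331 CPM in the 29 numbered 9 to 37, of which number 12, the posterior library of enriched mouse 2, was the highest. The former included a standard C57BL/6J anterior library, number 5, at 461.5 CPM, and the standard C57BL/6J posterior library number 7 at 184.4 CPM. Number 13, a standard B6D2F1N posterior library, was above number 7 at 190.8 CPM. Number 10, a standard C57BL/6J posterior library, was at 131.5 CPM. Iscu was at 30.8 to 90.3 CPM in the libraries numbered 2 to 7 and at 4.83 to 44.7 CPM in the rest. That standard C57BL/6J anterior library also had the highest Tenm3 of the 6 C57BL/6J anterior libraries, 25.1 CPM against 4.81 to 14.5, the highest Tmem44, 26.9 CPM against 13.9 to 17.3, and the lowest Zfp410, 11.3 CPM against 22.2 to 36.3, though its housing was standard. When the library number was added as a term to the B6D2F1N fit, the log2 fold change was 0.92 for Pcsk1n, 0.95 for Iscu, 0.88 for Tenm3, 0.96 for Tmem44, -0.87 for Zfp410 and -4.32 for Gsdmd. What the number stands for, and its part in these differences, was not tested.

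**Figure D4:**
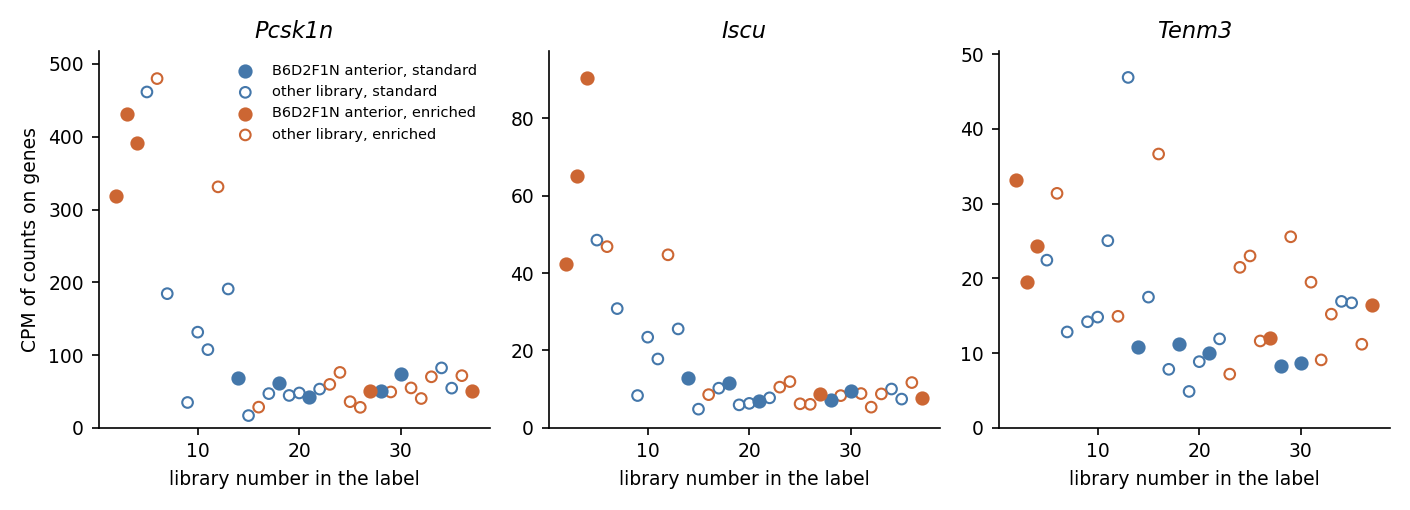
CPM of the counts on genes (not TMM-scaled) of Pcsk1n, Iscu and Tenm3 against the library number in the label for all 35 libraries, with filled points for the 10 anterior B6D2F1N libraries, open points for all others, blue for standard and orange for enriched housing. Pcsk1n and Iscu are high in the libraries numbered 2 to 7 of both housings and in number 12. Numbers 10 and 13 are intermediate, at 131.5 and 190.8 CPM for Pcsk1n and 23.4 and 25.6 CPM for Iscu. High Tenm3 is spread over the numbers.

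In none of the 8 lower genes at a mean of at least 10 CPM were enriched mice 2, 3 and 5 the 3 lowest of the 10 libraries. Enriched mice 2 and 5 were, however, the lowest pair for Zfp410, for Trp53bp1 and for Crtc3, described below. Zfp410, a zinc finger transcription factor, was at 32.6, 29.5, 31.9, 32.3 and 42.9 CPM in standard and 25.1, 11.9, 22.3, 17.6 and 11.8 CPM in enriched mice. Ssbp1, which binds single-stranded mitochondrial DNA, was at 51.2, 46.2, 47.3, 48.8 and 61.4 CPM in standard and 37.3, 31.6, 39.2, 26.3 and 26.2 CPM in enriched mice. Trp53bp1, a double-strand break repair factor, was at 45.6, 54.2, 67.9, 58.5 and 49.1 CPM in standard and 35.9, 33.8, 43.7, 43.1 and 35.9 CPM in enriched mice. In each of these 3 genes all standard mice were above all enriched mice, as for 18 of the 9534 genes (0.189%) at a mean of at least 10 CPM. The log2 fold change was -0.93 (SE 0.26) for Zfp410, -0.67 (SE 0.19) for Ssbp1 and -0.52 (SE 0.18) for Trp53bp1, and -0.65, -0.67 and -0.47 without enriched mice 2, 3 and 5. Trp53bp1 and Tubgcp4 lie on opposite strands and share part of their sequence, 19.9% of the windows of Trp53bp1, so their reads may not be separated.

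In the other lower genes the groups overlapped. The kinase gene Cdkl4 was at 42.9, 35.1, 19.4, 45.4 and 43.2 CPM in standard and 20.1, 23.5, 13.6, 31.2 and 17.1 CPM in enriched mice, with a log2 fold change of -0.82. The phosphoinositide phosphatase gene Inpp4b was at 34.5, 28.0, 44.0, 30.4 and 22.0 and 12.1, 20.9, 24.8, 21.1 and 15.6 CPM in the same order, with a log2 fold change of -0.75. Standard mouse 3 was the lowest standard mouse for Cdkl4 and the highest for Inpp4b. Ctxn2, a cortexin, had a log2 fold change of -0.73, and Crtc3, a coactivator of the transcription factor CREB, one of -0.80. The remaining gene, Hcrt, the neuropeptide hypocretin of lateral hypothalamic neurons, was at 0.0465, 0.180, 3844, 0 and 1.71 CPM in standard and 2.65, 0.545, 0.482, 1.23 and 20.4 CPM in enriched mice. Standard mouse 3 alone set its log2 fold change of -7.23, which was 3.38 without that mouse. Cartpt, another hypothalamic neuropeptide gene, was also highest in standard mouse 3, at 189 CPM against at most 7.78 CPM elsewhere, and its log2 fold change went from -3.24 to 0.73 without it.

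Pathways were described by the counts and median of their members beside the median of all 24639 genes, which was -0.001 on the log2 scale, and no member of any group passed the threshold. Immediate early genes, which neurons switch on within minutes of activity, had a higher estimate in 15 of 20 members and a median log2 fold change of 0.32. Their summed level was 361, 376, 320.3, 352 and 374 CPM in standard mice 1 to 5 and 491, 521, 408, 359.6 and 415 CPM in enriched mice 1 to 5. Only enriched mouse 4 lay within the standard range, and without enriched mice 2, 3 and 5 the median was 0.12. Egr1, an early transcription factor, was at 27.4, 40.0, 50.2, 26.6 and 35.4 CPM in standard and 67.3, 91.9, 59.1, 33.2 and 45.6 CPM in enriched mice, a log2 fold change of 0.73 (SE 0.27, adjusted p 0.770) that was 0.49 without those mice. Dusp1, a phosphatase that turns off MAP kinases, was at 15.1, 7.68, 5.62, 5.42 and 8.73 CPM in standard and 8.21, 42.6, 35.3, 5.19 and 33.7 CPM in enriched mice, and its log2 fold change of 1.56 became -0.33 without those mice. These were the 2 members (10%) with an unadjusted p under 0.05, against 6.3% of all genes, and Arc, which acts at active synapses, had a log2 fold change of 0.51 (95% interval -0.07 to 1.09).

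Bdnf, the neurotrophin most often studied in enrichment, did not separate the groups. Its level was 278, 297, 79.8, 294 and 283 CPM in standard and 88.3, 150.4, 151, 394 and 291 CPM in enriched mice. Standard mouse 3 was the lowest of the 10, and the values of the groups overlapped over most of their range. The log2 fold change of Bdnf was -0.20 with a 95% interval of -1.02 to 0.63, so that a 2-fold rise was outside it and a 2-fold fall was not. Ntf3, the ligand of the receptor TrkC, was at 4.18, 4.44, 1.12, 2.69 and 0.996 CPM in standard and 15.9, 6.66, 2.89, 6.05 and 1.45 CPM in enriched mice, with a log2 fold change of 1.29 (SE 0.65, adjusted p 0.799) that was 0.66 without enriched mouse 1. Of the 14 neurotrophins and receptors, 9 had a higher estimate, the median was 0.13, and only the scarce Gdnf, at 3.30, 0.0449, 0, 0 and 0 CPM in standard and 0, 0, 0, 0.0535 and 0 CPM in enriched mice, had an unadjusted p under 0.05.

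Most genes of the synaptic groups were bounded. The 95% intervals lay inside a 2-fold change for 88.2% of 17 ionotropic glutamate receptor genes, 91.7% of 12 GABA-A receptor subunits, 93.3% of 15 calcium channel genes, 75% of 20 postsynaptic density genes and 73.1% of 26 genes of vesicle release, against 32.9% of all genes, 78.4% of genes at 10 to 100 CPM and 93.8% at 100 CPM or more. Their median log2 fold changes were 0.07, 0.04, 0.06, 0.12 and 0.003. Gabra5, the subunit of extrasynaptic GABA-A receptors, had the largest estimate of its group, 0.81 (95% interval 0.17 to 1.45), and Dlgap1, a scaffold protein of the postsynaptic density, had a log2 fold change of 0.51 (95% interval 0.003 to 1.01). No member of the glutamate receptor, calcium channel or vesicle release groups had an unadjusted p under 0.05.

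Other pathways tied to enrichment or stress had medians between -0.13 and 0.06, which did not all lie on the same side. Of all 24639 genes, 12275 had a higher estimate. Genes of immature neurons and neurogenesis had a median of 0.06 with 12 of 16 higher, the unfolded protein response and heat shock 0.05 with 16 of 24 higher, and glycolysis 0.03 with 11 of 17 higher. Cholesterol synthesis had a median of -0.01 with 11 of 22 higher. Interferon response genes, at 0.02 with 8 of 16 higher, MHC class I genes, at 0.02 with 5 of 10 higher, and clustered protocadherins, at -0.03 with 26 of 55 higher, lay close to 0 as well. Glucocorticoid receptors and their target genes had a median of -0.13 with 5 of 17 higher. This median became 0.32 without enriched mice 2, 3 and 5 and -0.32 without enriched mouse 1.

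Neuropeptides varied widely between the mice of a group. Of 18 neuropeptide genes 5 had a higher estimate, with a median of -0.30 and 16.7% of the intervals inside a 2-fold change. The median turned to 0.12 without standard mouse 3 and was -0.78 without enriched mice 2, 3 and 5. Those with an unadjusted p under 0.05 were Cartpt, Pomc and Tac2 on the lower side, with log2 fold changes of -2.17 and -1.02 for the latter pair, and Avp on the higher side with 3.15, which turned to -2.19 without enriched mice 2, 3 and 5. In the perineuronal net and matrix group, 10 of 15 were higher with a median of 0.14. Hapln1, a link protein of the nets around neurons, was at 118, 96.7, 43.1, 116 and 95.2 CPM in standard and 50.6, 54.2, 50.7, 88.4 and 61.3 CPM in enriched mice, with a log2 fold change of -0.62 (95% interval -1.17 to -0.08). All enriched mice were below 4 of the 5 standard mice, and standard mouse 3 was below all of them. Hapln2, a link protein made by oligodendrocytes, had a log2 fold change of 1.79 with all libraries and -0.28 without enriched mice 2, 3 and 5.

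Genes of protein synthesis and respiration had small and mostly lower estimates. Cytosolic ribosomal protein genes had a median log2 fold change of -0.20, with 7 of 82 higher, 0 with an unadjusted p under 0.05 and 92.7% of the intervals inside a 2-fold change. Nuclear subunits of oxidative phosphorylation had a median of -0.18 with 12 of 82 higher, and the mitochondrially encoded proteins one of -0.23 with 0 of 12 higher, among them mt-Co2 with an estimate of -1.50 (unadjusted p 0.0323 in edgeR) that was -0.63 without standard mouse 3. The summed level of the ribosomal genes was 4337, 4895, 6708, 5116 and 6982 CPM in standard and 7019, 3483, 4170.1, 4649 and 5639 CPM in enriched mice, so the groups overlapped. Without enriched mice 2, 3 and 5 the medians were 0.06, 0.05 and 0.09, and the lower direction was gone. The members of each of these groups share libraries and are often expressed together, so their number adds no replicates.

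Markers of other cell types moved with single libraries. In bulk tissue, fewer cells of a type and less RNA per cell cannot be told apart. All 12 oligodendrocyte markers had a higher estimate, with a median of 0.56 and none with an unadjusted p under 0.05. Their summed level was 8051, 5590.3, 15013, 5782 and 8597 CPM in standard and 31463, 4720.0, 9728, 8439 and 5151 CPM in enriched mice. Enriched mouse 1 was the highest by far, and without it the median was -0.21, against 1.22 without enriched mice 2, 3 and 5. Mbp, the main myelin protein, followed the same pattern at 2036, 1030.2, 3248, 1038 and 2053 CPM in standard and 11772, 707, 2128, 1098 and 1044 CPM in enriched mice, with a log2 fold change of 0.83 that turned to -0.60 without enriched mouse 1. Choroid plexus markers summed to 928 CPM in enriched mouse 1 and to 12.4 to 62.3 CPM in the other 9 libraries, and ependymal markers to 46.1 CPM in that mouse and 8.38 to 21.6 CPM in the other 9. Ttr, Aqp1 and Kcne2 were the choroid plexus markers with an unadjusted p under 0.05. The medians of 3.44 and 2.04 for choroid plexus and ependymal markers became 0.05 and -0.55 without enriched mouse 1, and 0.28 and 0.25 under edgeR's filterByExpr.

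Astrocytes, microglia and neurons stood closer together. Astrocyte markers had a median of -0.09, or 0.13 without enriched mice 2, 3 and 5, with 4 of 12 higher, and 2 of them had an unadjusted p under 0.05. Ntsr2, a neurotensin receptor of astrocytes, was at 69.6, 32.6, 38.7, 43.5 and 53.4 CPM in standard and 37.6, 206, 125, 57.9 and 177 CPM in enriched mice, a log2 fold change of 1.34 that was 0.02 without enriched mice 2, 3 and 5. Gfap, the intermediate filament of astrocytes, had a log2 fold change of 1.92 (95% interval 0.39 to 3.45), or 2.90 without those mice and 0.89 without enriched mouse 1. Microglia markers had a median of 0.09 with 8 of 12 higher and 91.7% of the intervals inside a 2-fold change. Markers of oligodendrocyte precursors, endothelial and mural cells and meningeal fibroblasts had medians of -0.17, -0.08 and -0.23. Excitatory neuron markers had a median of 0.06 with 10 of 12 higher, inhibitory neuron markers -0.24 with 4 of 12 higher, and markers of striatal projection neurons, which border the amygdala, -0.39 with 1 of 10 higher and none with an unadjusted p under 0.05. Striatal markers summed to 940, 330, 1379.5, 383 and 373 CPM in standard and 306, 547, 754, 477 and 555 CPM in enriched mice. Without standard mouse 3 the medians were -0.05 for striatal, -0.07 for inhibitory, -0.11 for excitatory neuron and 0.18 for oligodendrocyte precursor markers. What part these markers have in any other difference was not tested.

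**Figure D5:**
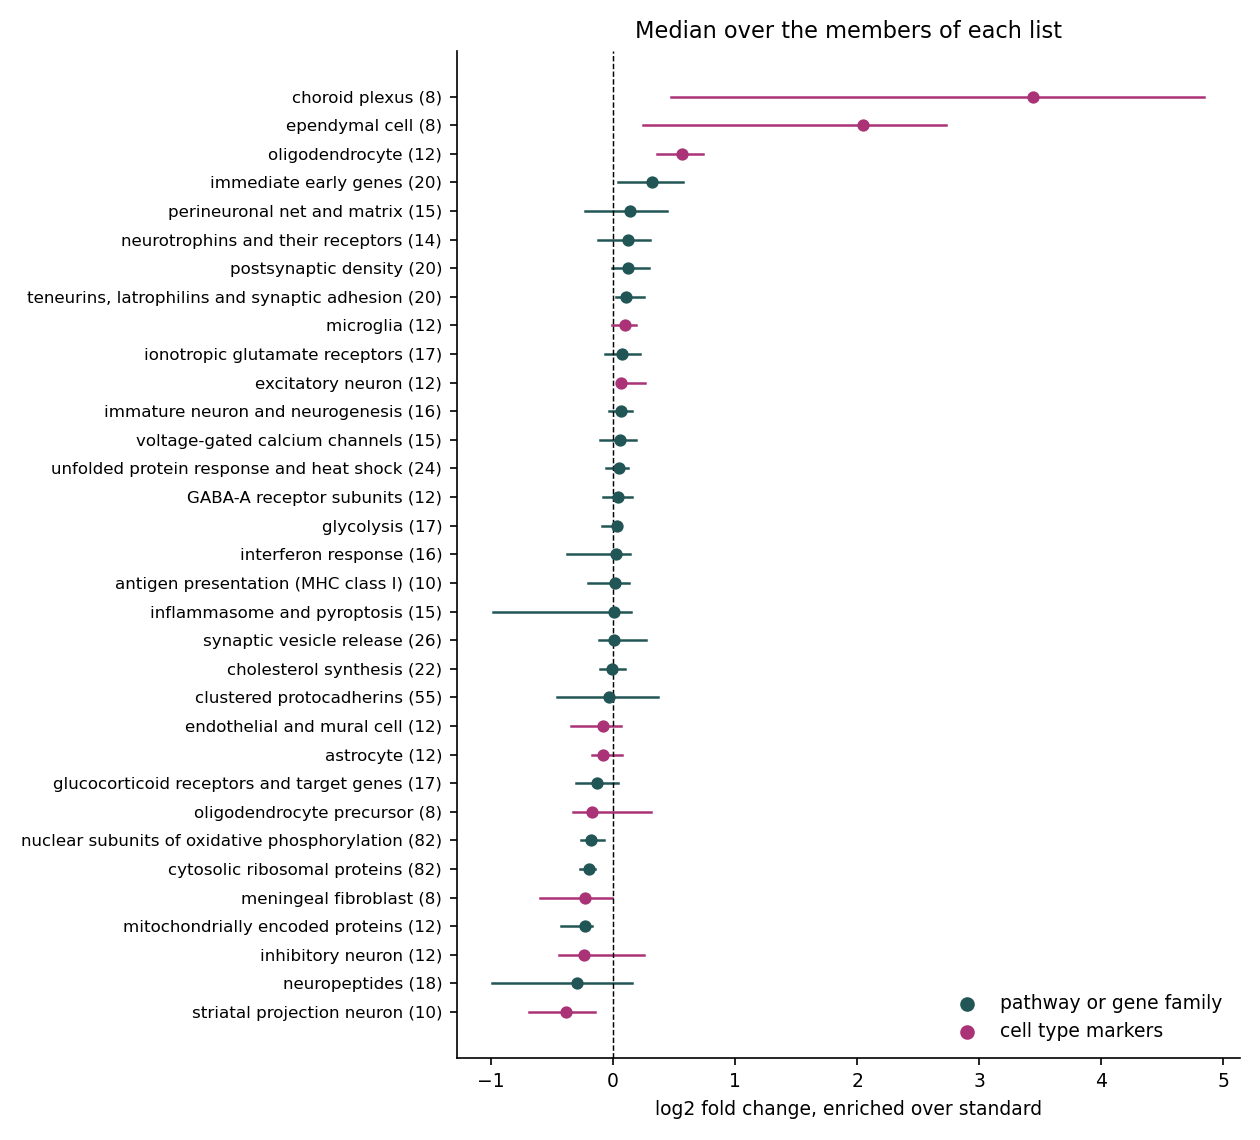
Median log2 fold change (points, enriched over standard) and quartiles (lines) over the members of each pathway or gene family (green) and each cell type's markers (purple), with the number of genes tested in parentheses and a dashed line at 0. Most pathway medians lie between -0.30 and 0.32, and the largest, for choroid plexus and ependymal markers, were set by enriched mouse 1.

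Among the 5 gene types with the most genes, an unadjusted p under 0.05 was found for 12.8% of 1432 long intergenic noncoding RNAs, 9.24% of 1807 transcript models still to be tested by experiment, 8.9% of 1731 processed pseudogenes, 7.11% of 1518 antisense transcripts and 4.93% of 16292 protein-coding genes, and 0 passed the threshold in each. Intervals lay inside a 2-fold change for 3.7%, 2.21%, 1.39%, 1.52% and 48.4% of them in that order. Protein-coding genes had a median log2 fold change of 0.01. Among those at a mean of at least 1 CPM, split into 4 equal groups by gene span, the median went from -0.04 for the shortest to 0.05 for the longest, and from -0.03 to 0.05 likewise by exon length. By transcript GC content the 4 medians were 0.005 to 0.02.

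The housing difference was then compared with that in the posterior amygdala of the same mice, by the interaction of housing and portion with the mouse as a block. Of 27761 genes, 0 (0%) passed with edgeR, the smallest adjusted p was 0.64, and 1099 (3.96%) had an unadjusted p under 0.05, while DESeq2 called 41 (0.148%). The interval of the difference lay inside a 2-fold change for 4929 genes (17.8%), so that most genes were not bounded. The posterior libraries alone also gave 0 calls of 25745 genes, with an unadjusted p under 0.05 for 1657 (6.44%). Ntf3, which the study picked in the posterior libraries, was there at 14.9, 5.86, 9.29, 24.2 and 32.1 CPM in the 5 standard and 2.70, 2.33, 3.50, 7.70 and 2.76 CPM in the 5 enriched mice, opposite in direction to the anterior values. The posterior log2 fold change of Ntf3 was -2.18 (SE 0.49), and the anterior minus posterior difference was 3.12 (SE 0.88) with an adjusted p of 1.0. Rprm, a cell cycle inhibitor that marks deep-layer cortical neurons, was also picked by the study in the posterior libraries. It was at 74.6, 69.6, 33.7, 82.0 and 56.3 CPM in standard and 70.8, 88.7, 31.4, 50.5 and 74.1 CPM in enriched anterior libraries. The log2 fold change of Rprm was -0.003 there, against -1.85 (SE 0.41) in the posterior ones. Its difference of 1.51 had an edgeR adjusted p of 0.986. The posterior values of Ntf3 and Rprm are therefore not independent evidence of a difference between portions. Gsdmd had a posterior log2 fold change of 0.33 and a difference of -4.95 with an adjusted p of 0.877.

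The difference between the strains was tested by the interaction of housing and strain over the 16 anterior libraries, of which only 2 came from enriched C57BL/6J mice. Of 26353 genes, 0 (0%) passed with edgeR, the smallest adjusted p was 0.81, and 1576 (5.98%) had an unadjusted p under 0.05, while DESeq2 called 11 (0.0417%). The interval lay inside a 2-fold change for 3207 genes (12.2%). Gm42944 had a log2 fold change of 1.42 (SE 1.43) in C57BL/6J, opposite in sign to that in B6D2F1N. Its difference between the strains had an edgeR adjusted p of 0.814. Gsdmd had a log2 fold change of -0.57 in C57BL/6J, and the B6D2F1N minus C57BL/6J difference was -3.76 (adjusted p 0.814). For Tenm3 that difference was 0.98 and for Tmem44 1.14, with adjusted p-values of 0.962 and 0.814. Housing effects in the other portion or strain were neither shown to differ from those in anterior B6D2F1N amygdala nor shown to be alike.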

How the data were processed

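RNA of laser-captured amygdala from frozen sections was sequenced by the authors as single 72-base reads after poly(A) selection with a low-input kit that does not mark strand. Per the labels and the submitters' processing notes, bcl2fastq, Trimmomatic 0.38, HISAT2 2.1.0 (GRCm38), SAMtools 1.8, HTSeq 0.11.2 and FastQC 0.11.7 were used; the annotation release and strand setting are not given in the sources used here. The deposited unit is the raw read count per Ensembl gene and library, neither normalized nor filtered by the authors, and HTSeq's tallies of unassigned reads were left out. Of the reads tallied in the 10 libraries, 14.0 to 22.8% lay in no annotated gene. Symbols, positions and gene types were matched from GENCODE M21 on GRCm38 for 52489 of 52636 genes. No 2 of the 35 libraries held identical counts.

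Groups were taken from the treatment, genotype and tissue labels. Genes whose counts summed to 10 or more in the libraries of a fit were tested in R 4.3.3 with edgeR 4.0.16 (TMM scaling, quasi-likelihood F test, no covariates, Benjamini-Hochberg over all genes, threshold 0.05). DESeq2 1.42.0, which the study used, and limma 3.58.1 were alternatives, besides other scalings, minimums, terms for bias label, library number and the digits that open the mouse name, and leaving out mice. Fold changes are log2 of enriched over standard, and CPM values are TMM-scaled unless said otherwise. Intervals are the log2 fold change plus or minus the t quantile times its standard error, and equivalence was tested by one-sided tests at margins of 0.5, 1 and 2. A group at 0 was set to 3 counts in each library for a lower bound; without molecular identifiers in the reads, this floor reflects counting error alone. Windows of 72 bases of a transcript, every 36 bases, were compared with other genes at up to 2 mismatches. The fits were tested on simulated counts.

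The comparison, gene lists, tests and named genes were chosen with earlier results of these data known. The genes named were those DESeq2 called. At a mean of at least 10 CPM, the 8 higher and 8 lower genes with the smallest p were added. Genes the study gives for this comparison, and Ntf3 and Rprm from its posterior one, were named too. So were members of each list with the smallest p or highest level. Egr1, Arc, Bdnf, Gfap, Pomc, Tac2, Slc17a7, Rspo2 and Mbp were named after their values were seen. The labels call the libraries of a group separate mice.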

Additional observations from a re-analysis of the deposited data

Results flagged for a closer look

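In 86 groups of 5 values examined, the highest or lowest value lay apart from the other 4 by more than 0.71 of the group's range in 12, against about 1 in 20 by chance alone for normally distributed values. In 2 of the 12, Cuzd1 and Gm43019, a single count beside 4 libraries at 0 fixed the gap at its largest possible size. Enriched mouse 1 stood apart in 5 of the 12, with Gm43019 at 0.0491 CPM, a single count, Ttr at 860 CPM, Mbp at 11772 CPM, oligodendrocyte markers at a sum of 31463 CPM and choroid plexus markers at 928 CPM. Standard mouse 3 stood apart with Hcrt at 3844 CPM, with Bdnf at 79.8 CPM, the lowest of its group, and with Cuzd1 at 0.0511 CPM, which was its only count among the standard mice. Enriched mouse 5 stood apart with Hcrt at 20.4 CPM, and enriched mouse 2 with Gm37738 at 10.7 CPM. Standard mouse 5 had the highest Zfp410, 42.9 CPM, and Gm43019 lay apart at 0.186 CPM in standard mouse 1, the lowest of its group. The results these values touch are given above with and without enriched mouse 1 or standard mouse 3 for Ttr, Mbp, the medians of these marker lists and Hcrt. No difference of the housing effect between portions or strains passed its test with edgeR.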

How the results depend on the processing

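No gene passed in the housing comparison under 19 of 23 alternatives, with 0 calls whichever mouse was left out, and the exceptions were DESeq2 with 8, limma-voom with 1, limma-voom with library quality weights with 1 and a block for the digits that open the mouse name with 1, the last pair chosen after seeing the data. The number of genes bounded inside a 2-fold change was 8109, between 7408 and 8136 with each mouse left out, 6798 without enriched mice 2, 3 and 5 (also chosen after seeing the data) and 5303 with a term for the bias label. The portion interaction gave 41 calls with DESeq2, 4 with a minimum of 1 count and between 0 and 4 with each mouse left out (4 without standard mouse 1, 1 without standard mouse 2), and the strain interaction gave 11 with DESeq2 and 0 with each mouse left out. The labels do not say what the digits that open the mouse name mark. They are shared by 4 enriched and 4 standard mice. Deviations of these mice from their group means correlated at -0.03 to 0.13 within the 4 pairs, over 0.1 in 1 of them. Pairs with different digits correlated at -0.09 to 0.06. Whether the digits mark a factor that the mice share was not tested. With this replicate block 6796 genes were bounded inside a 2-fold change, 981 had an unadjusted p under 0.05, and the gene that passed, named after its value was seen, was Tmem178 (log2 fold change 1.91, edgeR adjusted p 0.00725, or 1.41 and 0.770 without the block). Dropping the mouse block from the portion interaction left it at 0 calls.

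Signs turned as follows. Without enriched mice 2, 3 and 5, the log2 fold change was -0.13 for Pcsk1n, -0.15 for Iscu, -0.33 for Dusp1, -2.19 for Avp and -0.28 for Hapln2. Hcrt was at 0.87 with limma-voom, 1.26 with quality weights, 5.23 with the bias term and -9.31 to 3.38 with each mouse left out, turning without standard mouse 3. Cartpt was at 1.39 with the bias term and -3.61 to 0.73 with each mouse left out, turning without that mouse too, and Avp was at -0.60 with the bias term. With each mouse left out, Mbp ranged from -0.60, without enriched mouse 1, to 1.12 and Bdnf from -0.54 to 0.00065, without that mouse. Rprm, near 0, was at 0.0117 with DESeq2 and with its size factors, 0.0022 with filterByExpr and -0.16 to 0.17 with each mouse left out. The cause was not tested. With the bias term the log2 fold change was -4.32 for Gsdmd, 1.06 for Tmem44, 1.11 for Tenm3, -0.80 for Zfp410 and -0.58 for Ssbp1. All 3 mice labelled optimist were standard, so they add nothing to the housing estimate of a fit with this term. On the standard side that estimate rests on 1 mouse labelled pessimist and 1 without a bias label. Other scalings moved the median of all genes to between -0.03 and 0.01. Intervals were widest for genes under 1 CPM, and the part of depth, of the number of mice and of the 3 libraries that stood apart was not tested.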
